A study of Mus musculus with 6 samples.

Results

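The COPII coat genes are the 10 mouse genes Sar1a, Sar1b, Sec23a, Sec23b, Sec24a, Sec24b, Sec24c, Sec24d, Sec13 and Sec31a. They were taken by symbol from a table of 54532 genes, in which all 10 were present and all 10 had enough counts to be tested. Their messenger RNA was measured by RNA sequencing in bone marrow-derived macrophages, cells that differentiate from marrow precursors in a dish. The mice were on a C57BL/6 background and 32 to 34 weeks old. The XKO group (3 libraries) is labelled as lacking Xbp1 in macrophages (Xbp1ΔMf), and the XWT group (3 libraries) carried the floxed gene intact (Xbp1FL/FL). All 6 samples had first been primed with lipopolysaccharide and had then spent 48 h in medium taken from wild-type primary hepatocytes, so no unprimed or unconditioned state was measured. Neither the Cre driver nor the origin of the libraries (separate mice or cultures, or 1 shared source) is stated, so p-values reflect only the spread between these libraries, which may be technical.

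The COPII coat shapes the vesicles that carry newly made secretory and membrane proteins out of the endoplasmic reticulum (ER). The small GTPase SAR1, once loaded with GTP, inserts into the ER membrane and recruits the inner coat, a SEC23 and SEC24 dimer, in which SEC24 binds cargo and SEC23 activates GTP hydrolysis by SAR1. The outer coat, a cage of SEC13 and SEC31, then bends the membrane. XBP1, a transcription factor that the unfolded protein response switches on, is known to drive genes of the secretory pathway in plasma cells and other secretory cells. The comparison asks how the coat genes stand in macrophages labelled as lacking it.

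The promoters of 4 coat genes are shown because 2 hold a letter pattern known from the unfolded protein response, 1 belongs to a gene that fell, and 1 spans the short gap between a pair of coat genes that point away from each other. The sequences are from RefSeq on GRCm38.p6, run from 250 bases before to 50 bases after the RefSeq start site, and are written 5′ to 3′ on the gene's own strand. In Sec24d (chr3:123267246-123267545, plus strand) and Sec23a (chr12:59011968-59012267, minus strand) the capitals mark TGACGTGG, the pattern of an unfolded protein response element. In Sec24c (chr14:20674071-20674370, plus strand) they mark the shorter ACGTG, which is also contained in TGACGTGG. In Sar1b (chr11:51763413-51763712, plus strand) they mark the 52 bases between the annotated starts of Sec24a, on the minus strand, and Sar1b. Most of the rest of that window lies inside Sec24a as annotated.
Sec24d: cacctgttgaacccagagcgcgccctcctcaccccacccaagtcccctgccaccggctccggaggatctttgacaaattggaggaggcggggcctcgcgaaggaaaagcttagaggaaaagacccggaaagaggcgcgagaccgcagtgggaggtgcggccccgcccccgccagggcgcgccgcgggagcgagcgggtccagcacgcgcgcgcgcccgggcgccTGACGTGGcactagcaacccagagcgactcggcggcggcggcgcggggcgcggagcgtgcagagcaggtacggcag
Sec23a: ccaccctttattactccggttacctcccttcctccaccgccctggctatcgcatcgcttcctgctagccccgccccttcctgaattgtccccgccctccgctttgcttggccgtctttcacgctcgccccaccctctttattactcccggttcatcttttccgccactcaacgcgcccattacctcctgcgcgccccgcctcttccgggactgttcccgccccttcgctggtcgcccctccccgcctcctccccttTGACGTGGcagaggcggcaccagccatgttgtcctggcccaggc
Sec24c: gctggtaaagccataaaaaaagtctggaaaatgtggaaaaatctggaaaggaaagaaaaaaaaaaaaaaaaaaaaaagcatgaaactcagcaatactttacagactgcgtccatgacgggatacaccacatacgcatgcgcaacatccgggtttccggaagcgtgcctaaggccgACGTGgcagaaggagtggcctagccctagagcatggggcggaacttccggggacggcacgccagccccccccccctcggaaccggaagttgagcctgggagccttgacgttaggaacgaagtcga
Sar1b: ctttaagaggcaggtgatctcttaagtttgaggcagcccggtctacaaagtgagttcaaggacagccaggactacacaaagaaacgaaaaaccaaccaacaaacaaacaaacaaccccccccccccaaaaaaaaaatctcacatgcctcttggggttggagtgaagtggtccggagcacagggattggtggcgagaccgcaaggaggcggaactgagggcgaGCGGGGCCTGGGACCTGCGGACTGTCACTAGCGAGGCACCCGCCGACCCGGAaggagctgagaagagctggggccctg

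All 10 genes matched a RefSeq promoter, in 12 windows of 300 bases, since Sec23b and Sec31a have 2 start sites each. TGACGTGG, searched on both strands, occurred in 2 of the 12 windows, from 2 of the 10 genes, and in 0.676% of all 32851 promoter windows. In Sec24d it covered bases -26 to -19 before the start site, and in Sec23a bases 7 to 14 after it, both on the sense strand. ACGTG occurred in 9 of the 12 windows, from 8 of the 10 genes (all but Sec23b and Sar1b), and in 19.6% of all windows. The ER stress response element (CCAAT, 9 bases of any kind, CCACG) was present in 0.119% of all windows, its second form (ATTGG, 1 base of any kind, CCACG) in 0.0365%, and the cyclic AMP response element TGACGTCA in 1.79%. Searched on both strands, these 3 patterns had no match in the 12 windows. A match describes letters only, and no match says nothing of sequence outside these 300 bases.

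**Figure D1:**
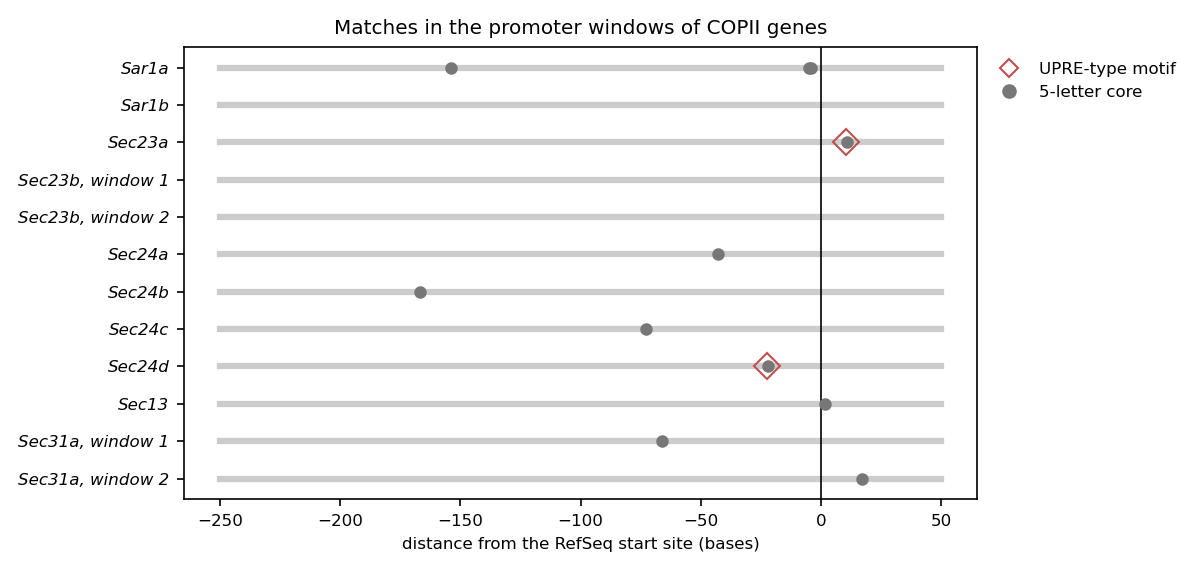
Positions of TGACGTGG (open diamonds, UPRE-type motif) and ACGTG (filled circles, 5-letter core) on either strand in 12 RefSeq promoter windows of the 10 COPII genes, as the distance in bases from the start site, with genes down the page. The diamonds occur only in Sec23a and Sec24d, where the shorter pattern lies inside the longer one.

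The 6 libraries held 28354866 to 30891729 counts each. Xbp1 stood at 76.8, 79.4 and 76.5 CPM in XKO 1 to 3, against 159, 157 and 132 CPM in XWT 1 to 3 (CPM, counts set to the same library total after TMM scaling). It was still counted in XKO, where reads outside a deleted part can contribute, so it is a partial check of the labels. All 8 macrophage markers were expressed in all 6 libraries, with a summed level of 25278 to 26948 CPM in XKO and 39551 to 47892 CPM in XWT. The 1 marker called was Lyz2, the lysozyme gene, which fell to 14274 ± 583 CPM in XKO, against 31140 ± 3553 CPM in XWT (SD, n = 3 each; edgeR adjusted p = 1.06e-06). Without Lyz2 the sum was 11478 to 12034 CPM in XKO and 12232 to 13548 CPM in XWT. Of 13 fibroblast and stroma markers, 10 could be tested and all 10 were lower in XKO, with sums over the 13 of 67.4 to 83.5 CPM in XKO and 699.6 to 812 CPM in XWT. Of 10 neutrophil markers, 8 could be tested and 7 were higher, with sums over the 10 of 97.8 to 105 CPM in XKO and 68.4 to 81.5 CPM in XWT, and Ly6g was at 0 throughout. All 8 hepatocyte markers were listed at 0 in all 6 libraries, and since it is not known how these exact zeros arose, nothing is read from them. Bulk RNA cannot tell fewer cells of a type from less RNA per cell, and the part of the macrophage, stromal and neutrophil markers in the results on coat genes was not tested.

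Loss of Xbp1 by label went with small differences in the coat. The cargo adaptor gene Sec24d fell by 16.4% and its close relative Sec24c fell by 13.5% of the XWT level in XKO. No coat gene was called higher. The other 8 genes did not pass the test, and their estimates lay between -0.14 and 0.14 on the log2 scale. Of the 10 genes, 2 were called lower and 0 higher by edgeR (quasi-likelihood F test, adjusted p under 0.05 over 14333 tested genes), against 7.99% of all tested genes called lower and 6% called higher. At an unadjusted p under 0.05 the count was also 2 lower and 0 higher, against 16.3% and 14.5% of all tested genes. DESeq2 gave 2 lower and 0 higher, against 7.6% and 5.46% of the 16164 genes to which it gave an adjusted p. The estimate was below 0 for 9 of the 10 genes and for 49.8% of all tested genes, and the median log2 fold change was -0.10 over the coat genes and 0.00 over all tested genes. Library-size scaling alone moved the coat median to -0.035 and the median of all genes to 0.07, so that the coat stood at about the same distance below it.

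**Figure D2:**
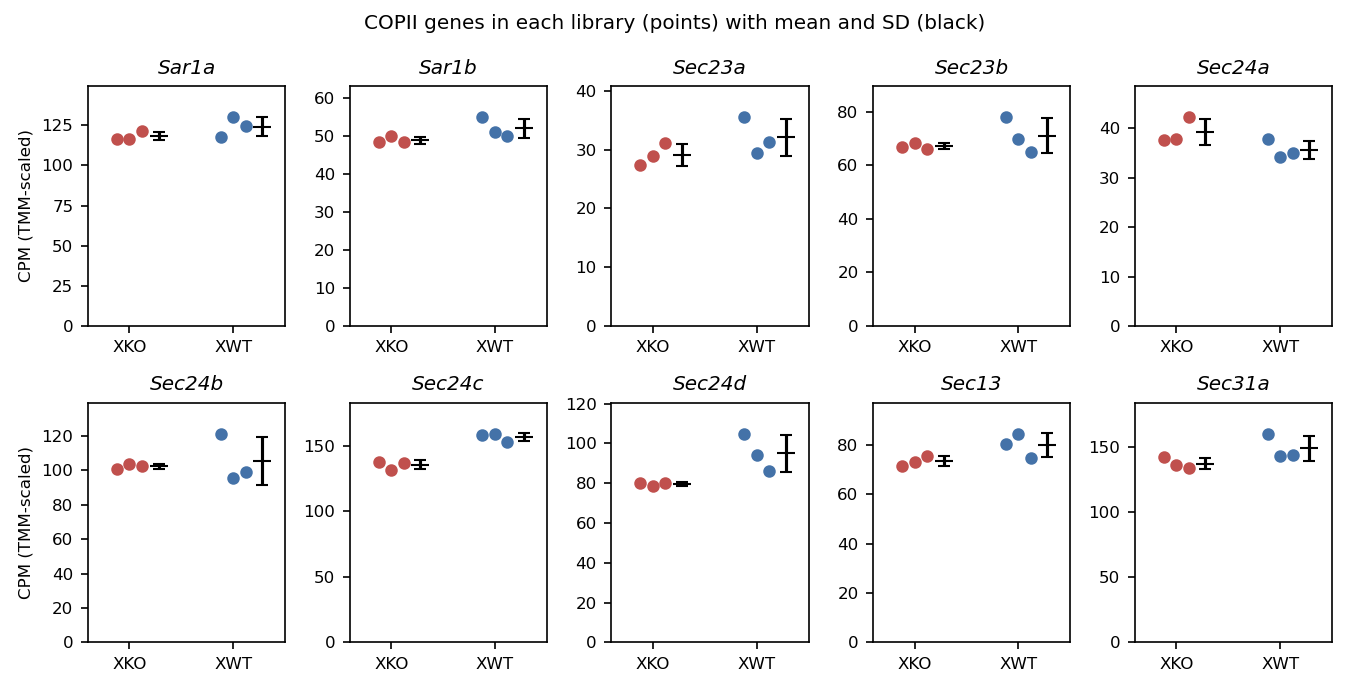
TMM-scaled CPM of each COPII gene, 1 panel a gene, with 1 point per library (XKO left, XWT right) and the mean with SD in black (n = 3 each). The XKO points lie below all XWT points in the panels of Sec24c, Sec24d, Sec31a and Sar1b.

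SEC24 proteins choose the cargo of the vesicle through binding sites for export signals, and mammals have 4 of them, of which SEC24C and SEC24D form one closely related pair and SEC24A and SEC24B the other. Sec24d (ENSMUSG00000039234, chromosome 3 from 123267455 to 123365641, plus strand) was counted 2489, 2410 and 2448 times in XKO 1 to 3, against 2825, 2795 and 2698 times in XWT 1 to 3. Scaled, this gave 80.2, 78.4 and 79.9 CPM in XKO 1 to 3, against 105, 94.1 and 86.4 CPM in XWT 1 to 3. The groups did not overlap, in raw counts as in CPM, and the XKO values lay close together while XWT 3 was the nearest XWT library to them. Sec24d averaged 79.5 ± 0.990 CPM in XKO and 95.1 ± 9.27 CPM in XWT (SD, n = 3 each), a log2 fold change of -0.26 ± 0.075 (SE; edgeR adjusted p = 0.0359). In humans and fish SEC24D is known for its part in the export of collagen. The stromal markers differed between the same groups, and their part in the Sec24d values was not tested.

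Sec24c (ENSMUSG00000039367, chromosome 14 from 20674308 to 20694852, plus strand) was counted 4277, 4039 and 4184 times in XKO 1 to 3, against 4248, 4719 and 4771 times in XWT 1 to 3. Here the raw counts overlapped through XWT 1, the library with the fewest counts in all. Scaled, Sec24c stood at 138, 131 and 137 CPM in XKO 1 to 3, against 158, 159 and 153 CPM in XWT 1 to 3, and the groups did not overlap. It averaged 135 ± 3.44 CPM in XKO and 156 ± 3.28 CPM in XWT (SD, n = 3 each), a log2 fold change of -0.21 ± 0.061 (SE; edgeR adjusted p = 0.0360). An antisense gene, 6230400D17Rik, overlaps Sec24c with 18 to 43 counts a library, and no source used here says whether the counting used strand.

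Both falls were among the smaller ones called in these libraries. Of 1145 genes called lower, 136 had a smaller fall than Sec24d and 9 a smaller fall than Sec24c, and the median of the called falls was -0.47. Leaving out any 1 XKO library ended both calls, and so did leaving out XWT 1 (adjusted p = 0.0905 for Sec24d and 0.0515 for Sec24c). Sec24d was also not called without XWT 2 (0.0649), and both were called without XWT 3 (0.00360 and 0.00976). Scaling by library size alone gave -0.19 for Sec24d and -0.14 for Sec24c, and correcting for length and GC content gave -0.18 and -0.11, with neither gene called in either case.

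The other SEC24 pair did not pass the test. Sec24a was the only coat gene with a higher estimate in XKO, at 37.7, 38.0 and 42.3 CPM in XKO 1 to 3, against 37.8, 34.3 and 34.99 CPM in XWT 1 to 3. The groups overlapped through XWT 1, and the log2 fold change was 0.14, with a 95% interval of -0.03 to 0.31 (edgeR adjusted p = 0.240). Sec24b stood at 101, 104 and 103 CPM in XKO 1 to 3, against 121, 95.4 and 99.1 CPM in XWT 1 to 3, where XWT 1 was high and the other XWT libraries lay below all XKO libraries. Its log2 fold change was -0.04 (95% interval -0.22 to 0.14; edgeR adjusted p = 0.778), and its sign changed without XWT 1 (0.07) and with library-size scaling (0.03).

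The SEC24 mixture was also set side by side within each library, which no scaling between libraries can alter. On the authors' FPKM, which are per length, Sec24c and Sec24d together were 1.71, 1.60 and 1.64 times Sec24a and Sec24b together in XKO 1 to 3, and 1.76, 2.11 and 1.92 times in XWT 1 to 3. The ratio was lower in every XKO library than in any XWT library, and XWT 1 came nearest to XKO. Sec24a made up 6.44%, 6.58% and 7.15% of the summed Sec24 FPKM in XKO 1 to 3, against 5.42%, 5.42% and 5.68% in XWT 1 to 3. Sec24d made up 23.1%, 22.9% and 22.8% in XKO 1 to 3, against 25.4%, 25.1% and 23.7% in XWT 1 to 3. Neither share overlapped between the groups, while those of Sec24b and Sec24c did. For scale, the CPM of 36.2% of all tested genes did not overlap between the groups in either direction. No such background was taken for shares or ratios. Per GENCODE, the longest transcripts of Sec24a, Sec24b, Sec24c and Sec24d hold 43.7%, 50.1%, 52.1% and 50.6% GC, and the part of length and GC trends between libraries in these shares was not tested. The shares were chosen after the values were seen and carry no test.

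**Figure D3:**
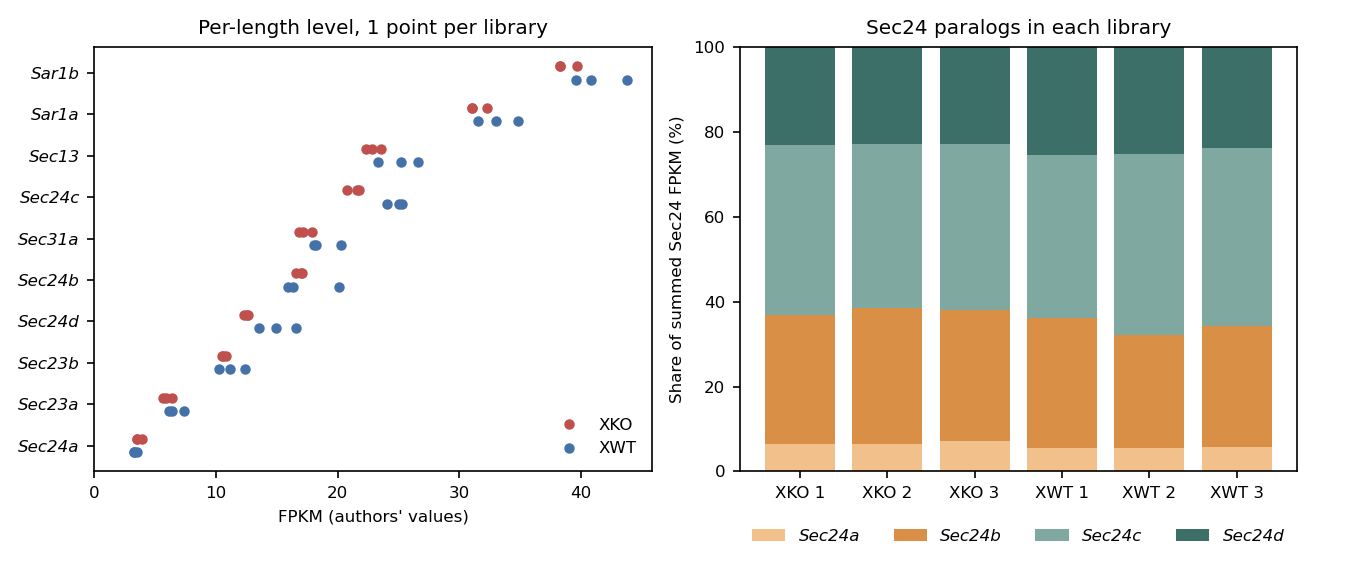
Left, the authors' FPKM of each COPII gene, 1 point per library (XKO above XWT), with genes ordered by level. Right, stacked shares of the summed Sec24 FPKM in each library; Sec24c had the largest share in all 6 libraries, Sec24a the smallest, and the Sec24a share was higher and the Sec24d share lower in every XKO library than in any XWT library.

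The SEC23 genes, which supply the other part of the inner coat and its GTPase-activating side, did not pass the test. Sec23a stood at 27.3, 28.8 and 31.0 CPM in XKO 1 to 3, against 35.5, 29.4 and 31.2 CPM in XWT 1 to 3, and the groups overlapped. Sec23b stood at 67.0, 68.3 and 66.3 CPM in XKO 1 to 3, against 78.0, 70.0 and 65.1 CPM in XWT 1 to 3, with XWT 3 below all XKO libraries. The log2 fold changes were -0.14 for Sec23a (95% interval -0.33 to 0.05; edgeR adjusted p = 0.299) and -0.08 for Sec23b (-0.24 to 0.08; edgeR adjusted p = 0.502). Sec23a carries the same TGACGTGG pattern as Sec24d, shown above, and was not called in the main test or in any of 15 alternatives. With length and GC trends removed it came near the threshold, at -0.25 (edgeR adjusted p = 0.0505). In that fit Sec24d stood at -0.18 (edgeR adjusted p = 0.106). The Sec23a share of the summed Sec23 FPKM was 34.7% to 37.9% in XKO and 35.4% to 38.5% in XWT, so the SEC23 mixture overlapped between the groups.

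The SAR1 genes, whose products start coat assembly, also did not pass the test. Sar1a stood at 117, 117 and 121 CPM in XKO 1 to 3, against 118, 130 and 125 CPM in XWT 1 to 3. Sar1b stood at 48.3, 50.05 and 48.4 CPM in XKO 1 to 3, against 55.0, 51.1 and 50.2 CPM in XWT 1 to 3. The Sar1b values did not overlap between the groups, but XKO 2 and XWT 3 nearly touched. Log2 fold changes were -0.07 for Sar1a (95% interval -0.21 to 0.07; edgeR adjusted p = 0.489) and -0.09 for Sar1b (-0.24 to 0.06; edgeR adjusted p = 0.401). Sar1b was called with length and GC trends removed (-0.27, adjusted p = 0.0305) and in none of the other 14 alternatives. At 1255 bases in the authors' table it was the shortest of the 10 genes.

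Sar1b and Sec24a are neighbours on chromosome 11, on opposite strands and pointing apart, with 52 bases between them (51763635 to 51763686), as printed above. Their estimates had opposite signs, 0.14 for Sec24a and -0.09 for Sar1b, and neither passed the test. Sar1b was the most abundant of the 10 genes per length, with 38.8 ± 0.772 FPKM in XKO and 41.4 ± 2.15 FPKM in XWT, and Sec24a the least, with 3.66 ± 0.237 FPKM in XKO and 3.33 ± 0.176 FPKM in XWT (SD, n = 3 each). The RefSeq start site used for Sec24a lies inside the gene as annotated in the authors' table, so its window is not this shared stretch.

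In the outer coat, Sec31a stood at 142, 136 and 133 CPM in XKO 1 to 3, against 160, 143 and 143 CPM in XWT 1 to 3. Sec13, whose product also belongs to the nuclear pore, stood at 71.5, 73.2 and 75.6 CPM in XKO 1 to 3, against 80.3, 84.4 and 74.8 CPM in XWT 1 to 3. The Sec31a values did not overlap, with XKO 1 just under the lower XWT libraries, and those of Sec13 did. Neither gene passed the test, with log2 fold changes of -0.12 for both (95% interval -0.26 to 0.03 for Sec31a and -0.27 to 0.02 for Sec13; edgeR adjusted p = 0.250 and 0.245). In all, 4 of the 10 coat genes had groups that did not overlap, with XKO lower in all 4, against 36.2% of all tested genes in either direction and 18.6% with XKO lower.

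**Figure D4:**
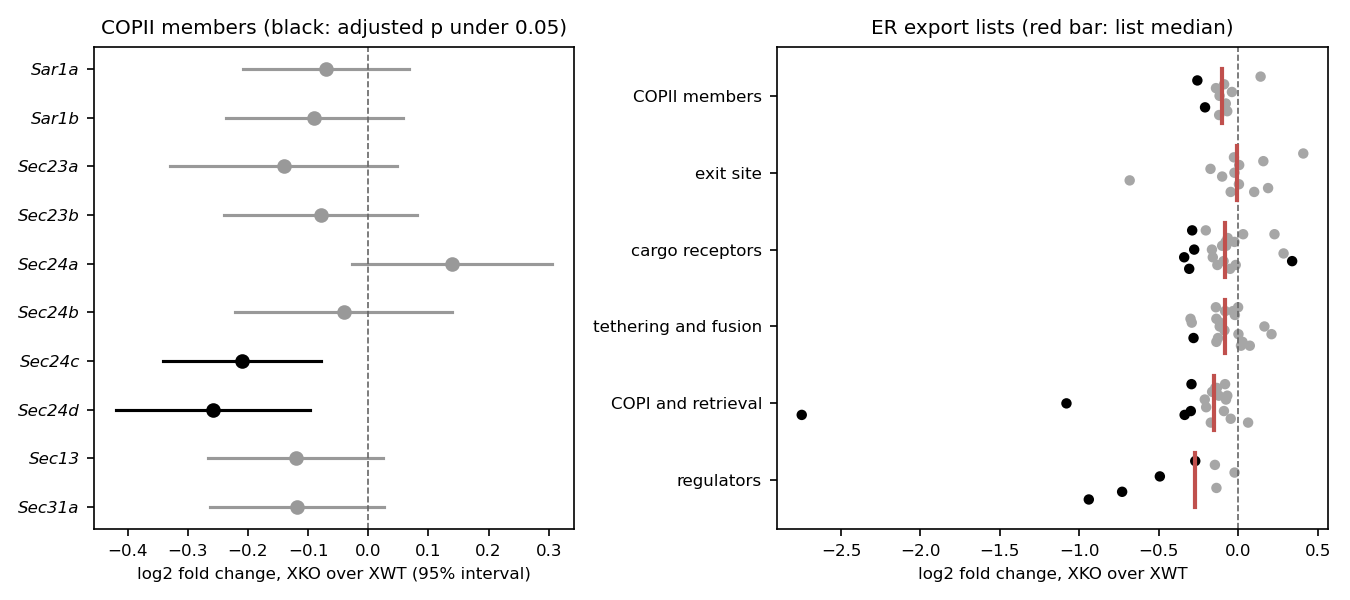
Left, log2 fold change of XKO over XWT for each COPII gene with its 95% interval, black where the adjusted p was under 0.05 (Sec24c and Sec24d). Right, the same value for every tested gene of the COPII set and 5 lists around ER export, with red bars at the list medians, from -0.01 for exit-site genes to -0.27 for regulators.

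Per length, the order of the 10 genes by mean FPKM was the same in XKO and XWT, from Sar1b through Sar1a, Sec13, Sec24c, Sec31a, Sec24b, Sec24d, Sec23b and Sec23a to Sec24a. Between neighbours in that order, the libraries overlapped in XKO only for Sec31a and Sec24b. In XWT they overlapped for Sec13 and Sec24c, for Sec31a and Sec24b, and for Sec24b and Sec24d. Sec23b was above its paralog Sec23a in every library, at 10.6 ± 0.165 against 5.97 ± 0.379 FPKM in XKO and 11.3 ± 1.07 against 6.61 ± 0.643 FPKM in XWT (SD, n = 3 each).

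The XWT libraries set much of the spread. The SD of CPM was larger in XWT than in XKO for 8 of the 10 genes, with coefficients of variation of 1.245% to 6.52% in XKO and 2.09% to 13.2% in XWT. XWT 1 was the highest XWT library for 7 of the 10 genes. The median coat gene, on a log2 scale centred on its mean over the 6 libraries, stood at -0.06, -0.06 and -0.04 in XKO 1 to 3, against 0.14, 0.02 and -0.01 in XWT 1 to 3, so that XWT 2 and XWT 3 lay nearer to XKO than to XWT 1.

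**Figure D5:**
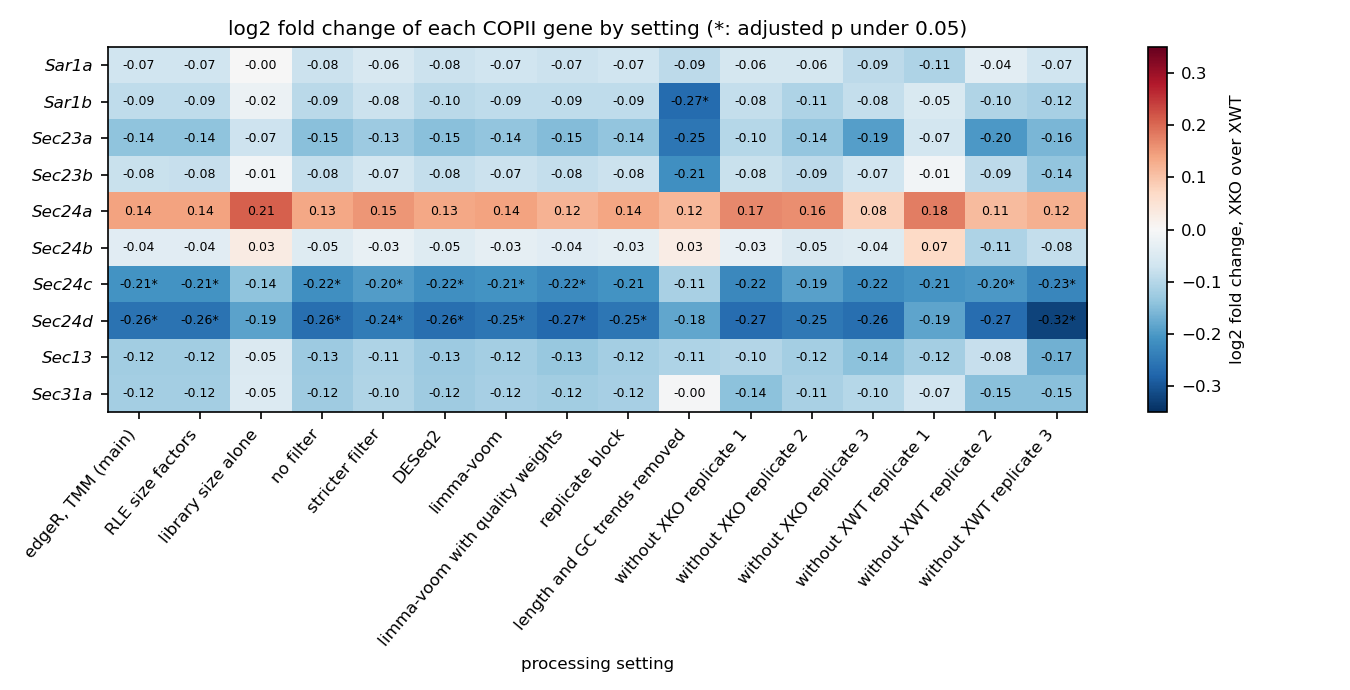
Log2 fold change of each COPII gene (rows) under the main setting and 15 alternatives (columns), with colour for the value and a star where the adjusted p was under 0.05. Sec24c and Sec24d were lower in every column and Sec24a higher in every column, while Sec24b changed sign.

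Other genes of ER export were read from 5 lists. Their counts stand beside 7.99% of all tested genes called lower and 6% called higher. At an unadjusted p under 0.05 these shares were 16.3% and 14.5%, and by DESeq2 7.6% and 5.46%. Of 12 genes that build or regulate exit sites, such as the scaffold gene Sec16a, the large-cargo receptor gene Mia3 (TANGO1) and Preb, which encodes the exchange factor of SAR1, 0 were called in either direction by edgeR, by unadjusted p under 0.05 or by DESeq2, and the list median was -0.01. Sec16a stood at 142 CPM in both groups, Mia3 at 66.9 CPM in XKO and 66.7 CPM in XWT, and Preb at 86.2 CPM in XKO and 80.5 CPM in XWT. Of this list, 1 gene was called lower without XWT 3, and 1 higher with length and GC trends removed.

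Cargo receptors link soluble or membrane cargo to the coat. Of 20 tested, 1 was called higher and 4 lower, against 6% and 7.99% of all tested genes. The list median was -0.09. At an unadjusted p under 0.05, 3 were higher and 6 lower, and by DESeq2 1 and 4. Surf4, a receptor for soluble secreted proteins, fell to 285 ± 4.81 CPM in XKO, against 353 ± 29.5 CPM in XWT (SD, n = 3 each; edgeR adjusted p = 0.0121), and the lectin gene Lman2 to 214 ± 6.70 CPM in XKO, against 271 ± 29.5 CPM in XWT (SD, n = 3 each; edgeR adjusted p = 0.0127). Ergic3 fell by 0.28 on the log2 scale. The single gene called higher was the p24 family gene Tmed5 (0.34, edgeR adjusted p = 0.0362), named after its value was seen. The 4 became 0 without any 1 XKO library, 2 without XWT 2, 2 with library-size scaling and 2 with length and GC trends removed, while the 1 became 0 without any 1 XKO library and with those trends removed, 2 without XWT 1, with no filter or with library quality weights, and 3 without XWT 3 or with library-size scaling.

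Among 20 genes that tether and fuse ER-derived vesicles, 1 was called lower and 0 higher, against 7.99% and 6% of all tested genes. The list median was -0.09. At an unadjusted p under 0.05, 4 were lower and 0 higher, and by DESeq2 1 and 0. The gene called lower was Gorasp2, which encodes a Golgi stacking protein (-0.28 ± 0.072, SE, edgeR adjusted p = 0.0211). The 1 became 0 without any XKO library or without XWT 1, 6 without XWT 3, and 3 with no filter. COPI carries proteins back to the ER. Of 18 genes of COPI and ER retrieval, 5 were called lower and 0 higher, against the same 7.99% and 6%. The list median was -0.16. At an unadjusted p under 0.05, 9 were lower and 0 higher, and by DESeq2 6 and 0. Cope, a coat subunit gene, fell to 83.5 ± 1.67 CPM in XKO, against 106 ± 6.05 CPM in XWT, and the coat subunit gene Copz2 to 2.84 ± 0.267 CPM in XKO, against 6.01 ± 0.547 CPM in XWT (SD, n = 3 each; edgeR adjusted p = 0.00417 and 0.000458). Kdelr3, one of the receptors that return ER residents, had 7, 7 and 5 counts in XKO 1 to 3, against 44, 34 and 45 counts in XWT 1 to 3 (edgeR adjusted p = 0.000222). Between the same groups the stromal markers summed to at most 83.5 CPM in XKO and at least 699.6 CPM in XWT, and their part in these values was not tested. The 5 became 11 without XWT 3, 3 without each of the other libraries, 3 with library-size scaling or the stricter filter, and 9 with library quality weights. The stricter filter asks for 5 CPM in 3 libraries, so Kdelr3, at 1.63 CPM or less in every library, was not tested under it.

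The last list held 7 transcription factor genes known to act on the secretory pathway, including Xbp1 itself. Its median was -0.27. At an unadjusted p under 0.05, 4 were lower and 0 higher, and by DESeq2 4 and 0. In the main test 4 were called lower and 0 higher, against 7.99% and 6% of all tested genes. Besides Xbp1 (-0.94) these were Creb3l2, whose product drives Sec23a in mouse cartilage, at 14.3 ± 0.318 CPM in XKO and 23.8 ± 0.385 CPM in XWT (SD, n = 3 each; edgeR adjusted p = 4.94e-05), Creb3 (-0.27; edgeR adjusted p = 0.0257) and Creb3l1 (-0.49; edgeR adjusted p = 0.0279), the last named after its value was seen. The ER stress sensor gene Atf6 stood at 167 CPM in XKO and 170 CPM in XWT and was not called (edgeR adjusted p = 0.860). The 4 became 2 without each XKO library in turn, without XWT 2, with library-size scaling, and with length and GC trends removed.

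By the distance between log2 CPM values centred on each gene's mean over the 6 libraries, 3 of 9385 genes of at least 5 CPM were nearest to Sec24d. They were Mrpl45, which encodes a mitochondrial ribosomal protein (distance 0.040), the interleukin-10 receptor subunit gene Il10rb (0.047) and Gorasp2 (0.053). All 4 genes have the same order of XWT 1, XWT 2 and XWT 3 from high to low. The choice by distance over these same 6 libraries favours such a shared order, so it is no separate result. Il10rb stood at 139.9, 141 and 145 CPM in XKO 1 to 3, against 185, 167 and 152 CPM in XWT 1 to 3.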

How the data were processed

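RNA was extracted with Trizol and sequencing libraries were built with a NEBNext Ultra RNA kit, per the labels' protocols. Bowtie 0.12.2 and the builds mm8 and mm10 are named in the submitters' processing notes, with no role or order. No source used here names the counting program, the annotation release or the strand setting. The counts deposited by the authors are whole numbers per Ensembl gene. The deposited FPKM values were scaled by the authors per length and library, and served, with no test, to compare levels between genes and shares of paralogs within libraries. The authors also deposited scaled group means (a signal), a log2 fold change and p-values with adjusted values, which were not used for any result. The coordinates of all 10 members were identical in GENCODE M21 (GRCm38).

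Counts were tested with edgeR 4.0.16 in R 4.3.3: filterByExpr kept 14333 of 54532 genes, TMM factors scaled the libraries, and XKO was set against XWT in a quasi-likelihood fit (robust option, 4 residual degrees of freedom). The Benjamini-Hochberg adjustment ran over all tested genes, with a threshold of 0.05. Intervals are 95% from the same fit. The depth of 28354866 to 30891729 counts per library, with a biological coefficient of variation of 0.0865, sets the precision. Alternatives used other scalings and filters, DESeq2 1.42.0, limma 3.58.1 (voom, with and without library weights), a replicate block, removed length and GC trends (GC known for 99.9% of tested genes), a threshold of 0.01 and each library left out. The fit was tested on simulated data.

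Members, lists, motifs and tests were chosen with earlier results of these data known. Named by rule are all members, Xbp1 and up to 3 called genes of smallest p per list. The 3 genes nearest to the member of smallest p were named too. Outside this rule, Sec16a, Mia3, Preb and Atf6 were named as examples, none of them called. Tmed5, Creb3l1 and the markers Lyz2 and Ly6g were also named outside it.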

Additional observations from a re-analysis of the deposited data

How the results depend on the processing

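The log2 fold change kept its sign for 9 of the 10 coat genes under all 15 alternative fits. The exception was Sec24b, at 0.030 with library-size scaling, 0.025 with length and GC trends removed, and -0.108 to 0.070 when 1 library was left out (0.070 without XWT 1). The 2 coat genes called lower became 0 with library-size scaling, 1 with length and GC trends removed (Sar1b), 1 with the replicate block (Sec24d), 0 at a threshold of 0.01, and 0 to 2 when 1 library was left out, and 0 were called higher in each case. The coat median moved to -0.035 with library-size scaling, while the median of all tested genes moved to 0.07. Over all tested genes, the 860 called higher became 1393 with length and GC trends removed, 262 at a threshold of 0.01 and 274 to 2073 when 1 library was left out. The 1145 called lower became 749 with library-size scaling, 730 with the stricter filter (5 CPM in 3 libraries), 544 at a threshold of 0.01 and 532 to 2164 when 1 library was left out. Same-numbered libraries did not deviate together over all tested genes (correlations of -0.04, -0.04 and -0.05). Whether libraries were made in numbered pairs is not stated, and a low correlation cannot decide it. The replicate block gave 1068 genes higher and 1127 lower, an adjusted p of 0.0658 for Sec24c and 0.0298 for Sec24d, 2 cargo receptor genes higher and 2 tethering genes lower. With 3 libraries a group, the main 95% intervals of the 8 uncalled coat genes reached -0.33 (Sec23a) at the low end and 0.31 (Sec24a) at the high end. These intervals belong to 1 fit and do not cover the choice of processing. With length and GC trends removed, Sar1b stood at -0.27, below its main interval of -0.24 to 0.06.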
